A study of Homo sapiens with 6 samples.

Results

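The 55 genes described here encode the machinery that licenses and fires replication origins, builds the replication fork, supplies DNA precursors and copies chromatin, together with cyclin E and E2F transcription factors. They were picked out by matching the gene names in the table to a list of 55. All 55 were found in the table of 60675 gene rows, and all 55 had enough counts to be tested, out of 16905 tested genes. Measurements came from HT1080, an established human fibrosarcoma line, labelled WT and kept as one cell line throughout. Cultures at partial confluence received SW-113 or SW-138, 2 compounds from a series on the selectivity of KDAC6 (HDAC6) inhibitors, each at 1 µM with 48 h of exposure. From frozen pellets, total RNA cleared of ribosomal RNA gave 6 paired-end libraries, 3 per compound. None of the 6 libraries is from a vehicle group, so "higher" and "lower" compare SW-138 with SW-113. A change by one compound cannot be told apart from the opposite change by the other. Whether replicates came from separate cultures is not labelled. The p-values therefore reflect library-to-library spread that may be technical.

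Before S phase, the origin recognition complex, CDC6 and CDT1 load the MCM2 to MCM7 ring onto DNA, and the kinase pair CDC7 and DBF4 then helps convert it into an active helicase with CDC45 and GINS. Most of these genes are transcribed in late G1 and S phase by E2F factors, which pocket proteins such as RB1 hold in check until cyclin-dependent kinases release them. In a bulk sample, more cells in S phase and more RNA per cell cannot be told apart.

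Many of these genes carry an E2F motif near the transcription start, so promoters of called genes are shown, with that of E2F1 beside them. RefSeq promoter windows (GRCh38.p14, 250 bases before to 50 after a start) were matched by symbol for 47 members. The stretches below run 5′ to 3′ on the gene's strand, and capitals mark every E2F match, except in E2F7, where they mark CCAAT boxes on either strand.
MCM2: tgaaccactTTTCGCGCGAAAcctggttg
MCM3: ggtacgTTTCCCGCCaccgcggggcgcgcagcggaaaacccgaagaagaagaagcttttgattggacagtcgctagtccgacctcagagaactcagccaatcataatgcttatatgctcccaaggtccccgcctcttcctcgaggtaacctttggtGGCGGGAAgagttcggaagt
MCM6: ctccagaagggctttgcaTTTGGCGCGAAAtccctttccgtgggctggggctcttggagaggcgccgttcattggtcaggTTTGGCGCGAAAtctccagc
POLE: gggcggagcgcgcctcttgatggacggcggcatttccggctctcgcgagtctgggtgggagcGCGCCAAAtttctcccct
PCNA: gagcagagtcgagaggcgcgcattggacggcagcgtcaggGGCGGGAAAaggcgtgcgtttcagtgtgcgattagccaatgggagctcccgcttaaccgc
E2F1: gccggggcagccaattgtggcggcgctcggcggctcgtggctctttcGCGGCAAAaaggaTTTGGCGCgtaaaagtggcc
E2F7: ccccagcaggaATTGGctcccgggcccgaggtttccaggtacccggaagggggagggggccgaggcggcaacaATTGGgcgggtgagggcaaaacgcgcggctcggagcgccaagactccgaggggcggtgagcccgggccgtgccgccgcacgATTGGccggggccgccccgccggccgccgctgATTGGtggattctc

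These lie at chr3:127598404-127598432 (plus strand) for MCM2, chr6:52284747-52284922 (minus) for MCM3, chr2:135876514-135876613 (minus) for MCM6, chr12:132687343-132687422 (minus) for POLE, chr20:5126623-5126722 (minus) for PCNA, chr20:33686386-33686465 (minus) for E2F1 and chr12:77065610-77065809 (minus) for E2F7. The E2F motif was searched on both strands in 5 spellings, TTTGGCGC, TTTCCCGC, TTTCGCGC, TTTGCCGC and GGCGGGAA, which can overlap one another. In MCM6 the same run of 12 letters, made of a forward and a reverse match, occurs at -152 and again at -90 from the start. MCM3 has matches at -174 and -24, and a further one across the start itself. At least 1 match was present in 30 of the 47 members (63.8%), against 6.67% of the 27305 genes in the promoter table and 10.8% of the 10678 tested genes with a window. E2F7 and CHAF1B, both higher in SW-138, had no match in their windows. The CCAAT box, searched as CCAAT on both strands, was present in 28 members (59.6%), 39.7% of all genes and 43.4% of tested genes. TTTGAA, the CHR motif of many G2 and mitosis genes, was present in 3 members (6.38%), 18.2% of all genes and 14.0% of tested genes. The 30 members with an E2F match had a median log2 fold change of 0.10, with 4 called higher and 1 lower. The 17 without a match had a median of 0.05, with 2 called higher and 0 lower. Over all tested genes the median was 0.01, with 2.76% called higher and 4.06% lower. The difference between members with and without a match was not tested.

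The libraries held 32771670 to 50871623 estimated counts, and the fewest counts of any member in a library was 37. Mesenchymal markers summed to 7957 to 8907 CPM with SW-113 and 8379 to 9505 CPM with SW-138. VIM, an intermediate filament gene of mesenchymal cells, lay between 3330 and 3860 CPM (counts relative to the library total, after TMM scaling). The 2 mesenchymal markers THY1 and NT5E were under 1 CPM in every library. Summed levels of 7 epithelial markers were 2.51 to 3.55 CPM with SW-113 and 2.93 to 3.76 CPM with SW-138, carried mainly by CLDN4 (1.82 to 3.07 CPM), and EPCAM was at 0.0246 CPM or less. The blood gene HBB was at 0 in all 6 libraries. The 6 blood markers summed to 0.369 to 0.464 CPM and 0.144 to 0.597 CPM, and the 6 endothelial markers to 1.28 to 1.51 CPM and 1.27 to 1.61 CPM. Stable noncoding RNAs took 8.74% to 9.86% of the counts with SW-113 and 6.045% to 8.22% with SW-138, so this share moved with the compound. SW-113 replicate 2 stood below the other libraries for most members, and values without it follow the results by gene.

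Replication and E2F genes differed little between the compounds, and most of the small differences pointed upward in SW-138. The ring subunits MCM2, MCM3 and MCM6, the leading-strand polymerase gene POLE, the chromatin assembly gene CHAF1B and the repressor gene E2F7 were higher, by 1.18-fold to 1.25-fold. PCNA, the sliding clamp, went the other way, at 0.857 of its level in SW-113. At an edgeR adjusted p (quasi-likelihood, Benjamini-Hochberg over the 16905 genes) under 0.05, 6 of 55 members (10.9%) passed as higher and 1 (1.82%) as lower, which left 48. Of all tested genes 6.82% passed, 2.76% higher and 4.06% lower. The log2 fold change was above 0 in 43 of 55 members (78.2%) and in 51.5% of all tested genes. Its median was 0.10 over the members and 0.01 over all tested genes. The largest difference among the members was 0.32 on the log2 scale, and every one of the 55 intervals (95%) lay within 1.5-fold in either direction. The libraries of the compounds did not overlap in 26 members, with SW-138 above in 23 and below in 3, where 27.9% of all tested genes had no overlap, 12.4% with SW-138 above and 15.4% below. With an unadjusted edgeR p under 0.05, 20 members were above 0 and 2 below, where 22.3% of all tested genes had such a p. With mitochondrial and stable noncoding RNA genes left out, 9 members passed, 8 higher and 1 lower, among 7.03% of the genes then tested.

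**Figure D1:**
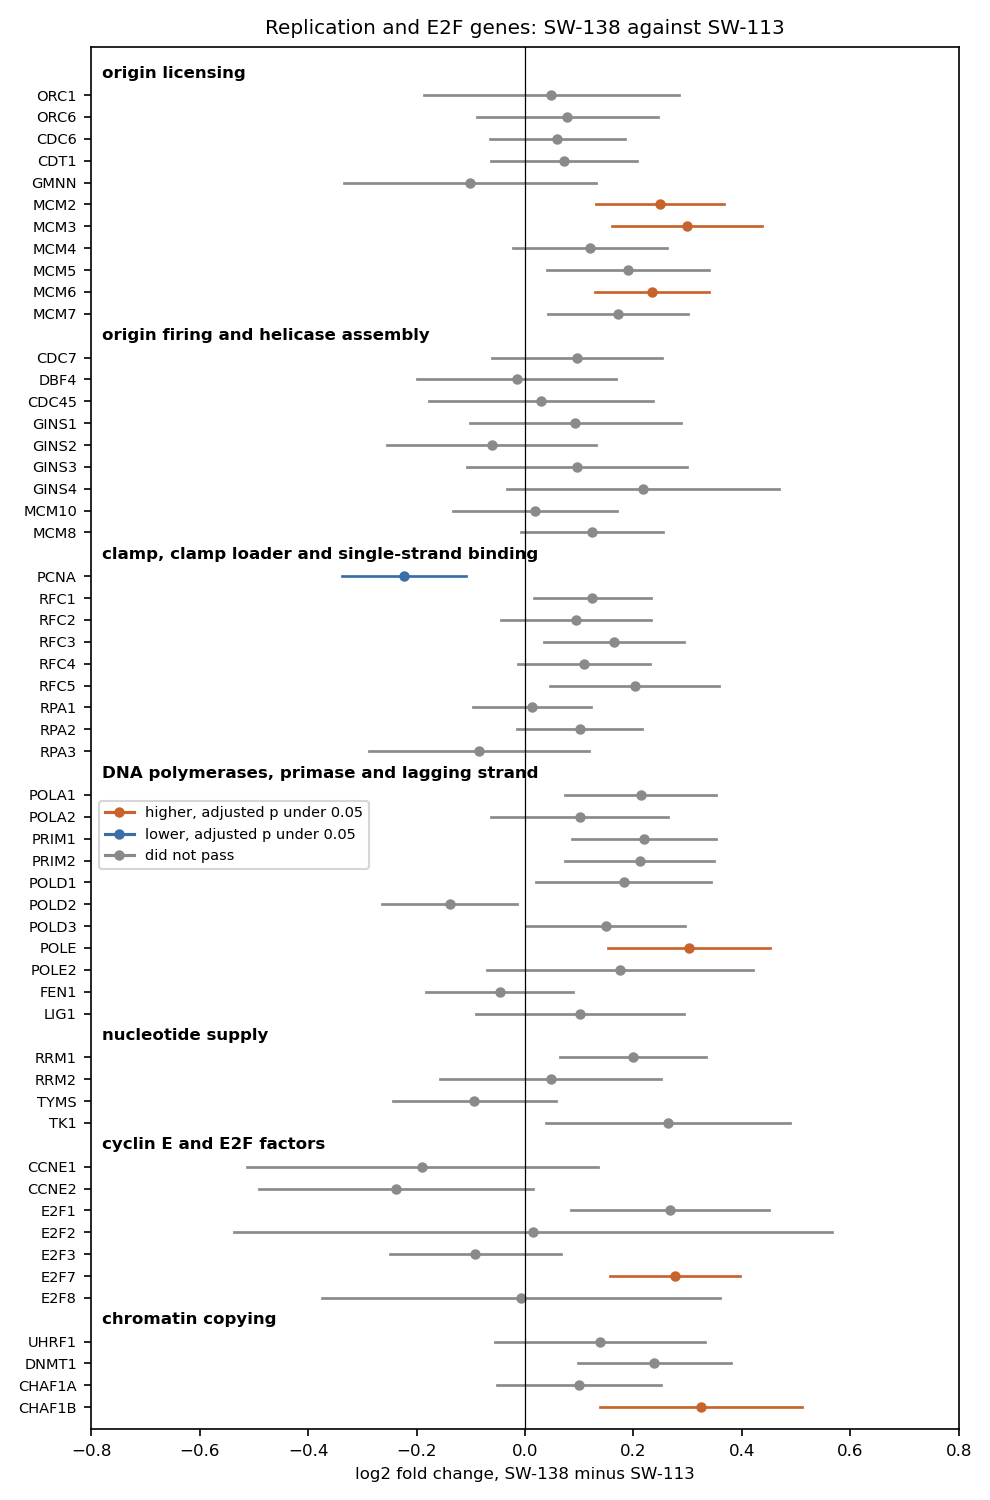
Log2 fold change (SW-138 minus SW-113, horizontal axis) of the 55 genes by role, each point with its 95% interval. Orange marks the 6 genes that were higher and blue PCNA, the 1 that was lower (edgeR, adjusted p under 0.05), and 33 intervals cross 0.

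All 6 ring subunits had log2 fold changes above 0, from 0.12 in MCM4 to 0.30 in MCM3, and 3 of them passed. MCM2 (ENSG00000073111, GRCh38 chromosome 3, 127598223 to 127622436) was at 119, 115 and 124 CPM in SW-113 replicates 1, 2 and 3 and at 134, 144 and 146 CPM in SW-138 replicates 1, 2 and 3. Every SW-138 library lay above every SW-113 library, at a log2 fold change of 0.25 (SE 0.05), with an edgeR p of 0.0243 after Benjamini-Hochberg adjustment. MCM3 was at 92.0, 86.1 and 97.6 CPM with SW-113 and at 112, 107 and 120.0 CPM with SW-138. It too showed no overlap, with a log2 fold change of 0.30 (SE 0.06) and an edgeR p of 0.0205 after Benjamini-Hochberg adjustment. MCM6, whose promoter carries the repeated E2F match shown above, was at 97.7, 95.4 and 101 CPM against 113, 115 and 118 CPM. Its spread within a compound was small, and the log2 fold change was 0.23 (SE 0.05), with an edgeR p of 0.0191 after Benjamini-Hochberg adjustment.

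The other ring subunits did not pass. MCM7 was the most abundant member of the licensing group, at 210.2, 198 and 227 CPM with SW-113 and 231, 235 and 250 CPM with SW-138, with no overlap and a log2 fold change of 0.17 (95% interval 0.04 to 0.30, edgeR, Benjamini-Hochberg adjusted p = 0.126). MCM5 stood at 101, 90.2 and 106 CPM against 107, 113 and 119 CPM, also without overlap, at 0.19 (0.04 to 0.34). MCM4 overlapped, with SW-113 replicate 3 at 135 CPM above SW-138 replicates 1 and 2 at 133 and 131 CPM, and its interval ran from -0.02 to 0.26. Per kilobase of the longest annotated transcript, MCM7 lay at 68.6 CPM with SW-113 and the other ring genes between 21.5 CPM (MCM5) and 32.9 CPM (MCM2). The 6 genes summed to 740.2, 698 and 791 CPM with SW-113 and 830.1, 846 and 889 CPM with SW-138. That is 743 ± 46.6 CPM against 855 ± 30.7 CPM (SD, n = 3), 15.1% more in SW-138 with no overlap between libraries.

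**Figure D2:**
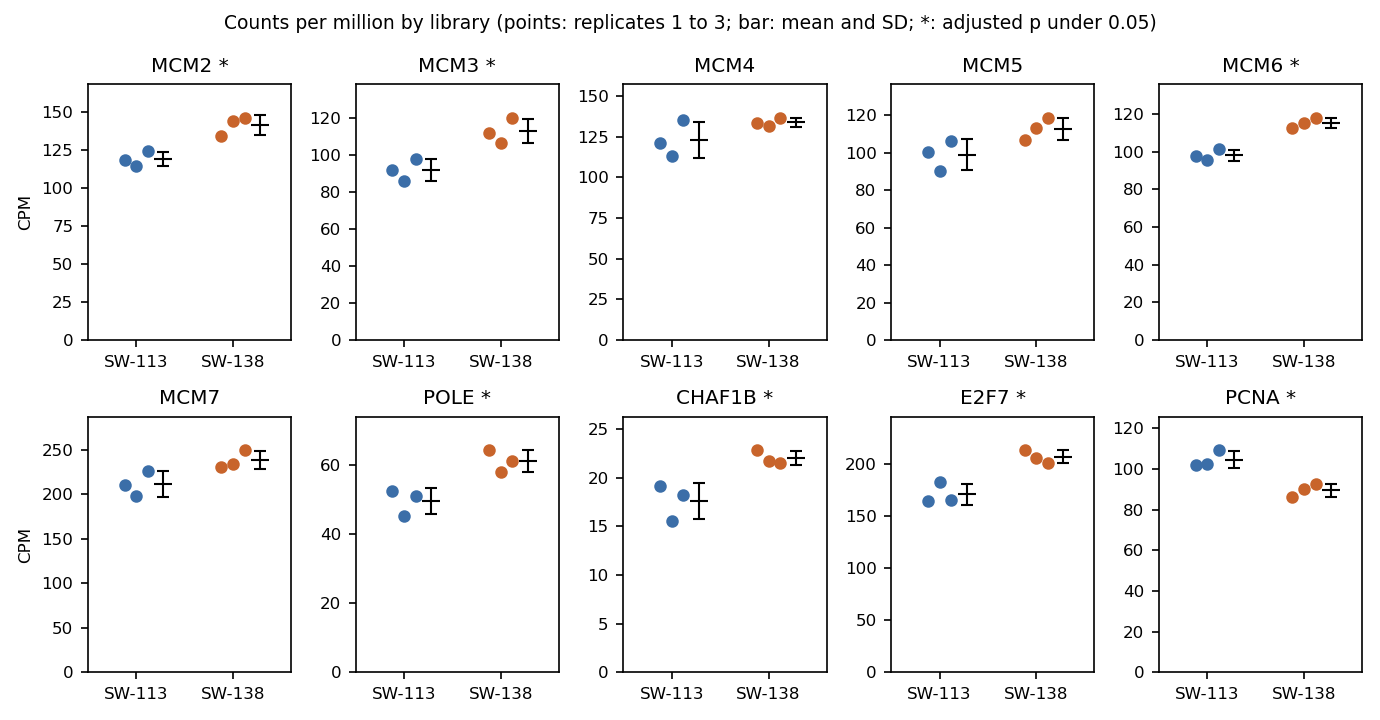
CPM of MCM2 to MCM7, POLE, CHAF1B, E2F7 and PCNA in each library, with points for replicates 1 to 3 and a bar for the mean and SD. All panels start at 0, and the libraries of the compounds are apart in each panel but that of MCM4.

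Loaders of the ring differed by less. ORC1 and ORC6, subunits of the origin recognition complex, were at 0.05 (-0.19 to 0.28) and 0.08 (-0.09 to 0.25), and the loaders CDC6 and CDT1 at 0.06 (-0.06 to 0.18) and 0.07 (-0.06 to 0.21). GMNN, which encodes the CDT1 inhibitor geminin, had the lowest value of the group, at 15.9, 13.8 and 17.6 CPM with SW-113 and 13.3, 14.7 and 16.0 CPM with SW-138. The compounds overlapped there, and the interval ran from -0.33 to 0.13. Among the 11 licensing genes, 3 passed as higher and 0 as lower, the median was 0.12, and summed levels were 865 ± 50.8 CPM and 981 ± 35.9 CPM (SD, n = 3) without overlap.

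None of the 9 genes of origin firing and helicase assembly passed in edgeR, 0 had an unadjusted p under 0.05, and DESeq2 and limma-voom called 0 as well. Their median was 0.09, and in all 9 the libraries of the compounds overlapped. GINS4, a subunit of the GINS complex that joins the helicase, had the largest value, 0.22 (-0.03 to 0.47), at 12.3, 10.2 and 13.8 CPM with SW-113 and 14.4, 12.8 and 15.0 CPM with SW-138. GINS2, from the same complex, had the smallest, -0.06 (-0.25 to 0.13), with GINS1 and GINS3 between them at 0.09 and 0.10. CDC7 and its activator DBF4 were at 0.10 and -0.02, and CDC45 and MCM10, which help activate the helicase, at 0.03 and 0.02. MCM8, a relative of the ring that acts in recombination, was the most abundant of the group, at 42.4, 41.0 and 43.9 CPM against 46.4, 48.7 and 43.6 CPM. Its interval ran from -0.01 to 0.25.

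The clamp and its loader lay on different sides of 0. PCNA (ENSG00000132646, GRCh38 chromosome 20, 5114953 to 5126626), which encodes the ring that tethers polymerases to DNA and which is also a p53 target, was at 102, 102 and 109 CPM with SW-113 and 86.2, 89.9 and 92.6 CPM with SW-138. Every SW-138 library lay below every SW-113 library, at 105 ± 4.08 CPM against 89.5 ± 3.22 CPM (SD, n = 3). The log2 fold change was -0.22 (SE 0.05), with an edgeR p of 0.0316 after Benjamini-Hochberg adjustment. By contrast, all 5 genes of replication factor C, which opens the clamp and loads it, had values above 0, from 0.09 in RFC2 to 0.20 in RFC5, and none passed. RFC5 was at 20.4, 19.3 and 21.7 CPM with SW-113 and 22.2, 24.5 and 23.8 CPM with SW-138, with an interval of 0.05 to 0.36. The intervals of RFC1 and RFC3 also lay above 0 (0.02 to 0.23 and 0.03 to 0.29). The genes of the single-strand binding protein RPA stood at 0.01 in RPA1, 0.10 in RPA2 and -0.09 in RPA3, and RPA1 was the flattest, at 83.8, 79.7 and 84.7 CPM against 82.1, 82.3 and 85.9 CPM. Among these 9 genes the median was 0.10, and 1, PCNA, passed.

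Among polymerases and primase, POLE (ENSG00000177084, GRCh38 chromosome 12, 132623753 to 132687365), the catalytic subunit of the leading-strand polymerase epsilon, was at 52.5, 45.5 and 51.2 CPM with SW-113 and 64.4, 58.0 and 61.4 CPM with SW-138. The compounds did not overlap, and the log2 fold change was 0.30 (SE 0.07), with an edgeR p of 0.0248 after Benjamini-Hochberg adjustment. Of the genes of the priming complex, PRIM1, PRIM2 and POLA1 lay just outside the threshold and POLA2 lay far from it. PRIM1, the catalytic primase subunit, was at 28.97, 28.3 and 30.0 CPM against 32.0, 34.6 and 35.0 CPM (0.22, edgeR, Benjamini-Hochberg adjusted p = 0.0522). PRIM2 and the polymerase alpha gene POLA1 had intervals of 0.07 to 0.35 in both cases (edgeR, Benjamini-Hochberg adjusted p = 0.0675 and 0.0698), and POLA2 overlapped between compounds (-0.06 to 0.26). Polymerase delta was mixed. POLD1, its catalytic subunit, had an interval above 0 (0.02 to 0.34), and POLD2, an accessory subunit, one below 0, at 87.2, 90.6 and 96.1 CPM with SW-113 and 78.6, 85.8 and 84.4 CPM with SW-138 (-0.26 to -0.01). Both were without overlap and neither passed. The accessory subunits POLD3 and POLE2 were at 0.15 and 0.18, also without overlap and without passing. FEN1 and LIG1, which trim and join lagging-strand fragments, were at -0.05 (-0.18 to 0.09) and 0.10 (-0.09 to 0.29). The median of the 11 genes was 0.18, and POLE was the 1 that passed.

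In nucleotide supply, the subunits of ribonucleotide reductase differed in how far the compounds were apart. RRM1, the large subunit of ribonucleotide reductase and the most abundant of the 4, was at 111, 101 and 119 CPM with SW-113 and 126, 125 and 129 CPM with SW-138. It had no overlap but did not pass, with an interval of 0.06 to 0.33 (edgeR, Benjamini-Hochberg adjusted p = 0.0826). RRM2, the small subunit whose level follows S phase, was at 64.1, 51.6 and 68.9 CPM against 63.2, 63.8 and 63.6 CPM. Its SW-138 libraries lay inside the SW-113 range. TK1, the thymidine salvage kinase, had the largest value, 0.26 (0.04 to 0.49), and TYMS, which makes thymidylate, the smallest, -0.09 (-0.24 to 0.06). SW-113 replicate 2 was low in TK1, at 23.0 CPM where replicates 1 and 3 were at 28.7 and 30.0 CPM. None of the 4 passed in edgeR, 2 had an unadjusted p under 0.05, and DESeq2 called 1 of them, RRM1, and limma-voom 0.

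Cyclin E and the E2F genes did not move as a block, with a median of -0.01 and 3 of 7 values above 0. E2F7 (ENSG00000165891, GRCh38 chromosome 12, 77021247 to 77065580), an atypical E2F that represses E2F targets and is itself a target of p53, was the most abundant, at 164, 183 and 166 CPM with SW-113 and 214, 206 and 202 CPM with SW-138. The compounds did not overlap, and the log2 fold change was 0.28 (SE 0.05), with an edgeR p of 0.0186 after Benjamini-Hochberg adjustment. E2F8, its partner in repression, lay at 1.92, 1.81 and 1.97 CPM against 2.09, 1.80 and 1.76 CPM, with a wide interval (-0.38 to 0.36). E2F1, the founding activator, was at 14.1, 12.6 and 14.7 CPM with SW-113 and 16.6, 15.7 and 17.5 CPM with SW-138. It had no overlap and did not pass (0.08 to 0.45, edgeR, Benjamini-Hochberg adjusted p = 0.0769). The other activators, E2F2 and E2F3, were at 0.01 (-0.54 to 0.57) and -0.09 (-0.25 to 0.07). CCNE1 and CCNE2, the cyclins that drive entry into S phase, had the lowest values of the group, -0.19 (-0.51 to 0.13) and -0.24 (-0.49 to 0.02). CCNE2 was at 4.88, 4.52 and 4.97 CPM with SW-113 and 3.88, 4.08 and 4.21 CPM with SW-138, without overlap. Per kilobase, E2F7 lay at 29.8 CPM with SW-113, E2F3 at 8.25 CPM, E2F1 at 5.52 CPM, E2F8 at 0.540 CPM and E2F2 at 0.295 CPM. E2F4, an E2F gene outside the 55, lay above them all with SW-113, at 37.0 CPM. With SW-138 E2F7 lay above E2F4, at 36.08 CPM against 32.97 CPM per kilobase.

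The genes that copy chromatin were all above 0. CHAF1B (ENSG00000159259, GRCh38 chromosome 21, 36385378 to 36419015), a subunit of the chromatin assembly factor CAF-1 that places histones behind the fork, was at 19.1, 15.5 and 18.2 CPM with SW-113 and 22.8, 21.7 and 21.5 CPM with SW-138. There was no overlap, and its log2 fold change of 0.32 (SE 0.08) was the largest among the 55 genes, with an edgeR p of 0.0435 after Benjamini-Hochberg adjustment. CHAF1A, its partner, was at 0.10 (-0.05 to 0.25). DNMT1, which copies DNA methylation, was the most abundant of the 4, at 164, 146 and 168 CPM against 194, 177 and 193 CPM, with no overlap. It lay just outside the threshold (0.10 to 0.38, edgeR, Benjamini-Hochberg adjusted p = 0.0562). UHRF1, which guides DNMT1 to new DNA, was at 61.0, 48.7 and 63.0 CPM against 63.2, 62.2 and 64.5 CPM, with SW-113 replicate 2 well below the other libraries (-0.06 to 0.33).

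Other genes of the pathway were taken from lists compiled by role. Of 15 genes for pocket proteins, E2F partners and the DREAM complex, 1 was higher and 0 were lower. It was RBL1, which encodes the pocket protein p107, at 26.2, 24.9 and 27.8 CPM with SW-113 and 32.0, 32.8 and 29.6 CPM with SW-138 (0.26, edgeR, Benjamini-Hochberg adjusted p = 0.0423). RB1, RBL2, TFDP1 and MYBL2 did not pass, at -0.03, 0.08, -0.06 and -0.12, nor did E2F4, the main repressor E2F of resting cells, at -0.17 (-0.28 to -0.06). In the list of 16 S phase kinases, activators and inhibitors, cyclin D1 (CCND1) was higher at 0.40 ± 0.05 (log2 fold change and SE), and the p21 gene CDKN1A and the cyclin gene CCND3 were lower, at -0.42 ± 0.06 and -0.37 ± 0.08. CDK2 and CCNA2, the kinase pair of S phase, were at 0.11 (-0.06 to 0.28) and -0.06 (-0.24 to 0.12). Among 30 other replication factors, MTBP, which acts in origin firing, was higher (0.36 ± 0.10), and the small polymerase subunits POLE4 and POLD4 were lower (-0.33 ± 0.06 and -0.24 ± 0.06), so the catalytic gene POLE and the accessory gene POLE4 of one polymerase lay on opposite sides of 0. TOP2A, which untangles daughter strands, was at 0.21 and did not pass in edgeR, but did in DESeq2, where POLD4 did not.

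In the list of 17 genes of nucleotide metabolism 1 passed, the nucleoside diphosphate kinase gene NME1, at -0.28 ± 0.06. DESeq2 also called RRM2B, the p53-induced small subunit of ribonucleotide reductase, lower at -0.23. EdgeR called 0 of the 20 other E2F targets in repair and checkpoint, 0 of 16 in chromatin and 0 of 30 G2 and mitosis genes. With an unadjusted edgeR p under 0.05 there were 2 above 0 and 1 below in the first list, 3 and 1 in the second, and 5 and 0 in the last. Of all tested genes 10% had such a p and were above 0, and 12.3% had one and were below. DESeq2 called 1 gene of the first list, MSH6 of mismatch repair (0.17), 1 of the second, the chromatin ATPase gene ATAD2 (0.23), and 0 of the last. Limma-voom called 0 in each. Over all genes then tested, DESeq2 called 10.5% and limma-voom 6.68%. RRM2B, MSH6 and ATAD2 were named after their values were seen. The medians of these lists were 0.12, 0.06 and 0.09, beside 0.10 for the members and 0.01 for all tested genes. Medians of the lists described before them lay lower. They were 0.03 for other replication factors and -0.02 for pocket proteins, E2F partners and the DREAM complex. S phase kinases, activators and inhibitors had a median of -0.06, and nucleotide metabolism had one of -0.06. MKI67, the proliferation marker, was at 206, 138 and 199.7 CPM with SW-113 and 233, 190.2 and 203 CPM with SW-138, and overlapped.

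The low library among the members was SW-113 replicate 2. It was the lowest of the 6 libraries in 38 of the 55 members (69.1%), where it was the lowest in 18.9% of all tested genes. It was also the lowest in 29 of the 30 G2 and mitosis genes. The median deviation of the members from each gene's mean over the 6 libraries was -0.15 in that library on the log2 scale, -0.04 and 0.01 in SW-113 replicates 1 and 3, and 0.04, 0.05 and 0.08 in SW-138 replicates 1, 2 and 3. SW-138 replicate 3 was the highest in 23 members (41.8%), where it was the highest in 15.2% of all tested genes. Without SW-113 replicate 2 the median log2 fold change of the members was 0.07, the number above 0 was 37, and 1 gene was called, E2F7, among 2.64% of all tested genes. The summed CPM of the 55 genes was 2733, 2580.3 and 2856 with SW-113 and 2940.1, 2965 and 3041 with SW-138, so replicate 2 was the lowest and the compounds did not overlap. These are 2723 ± 138 CPM and 2982 ± 52.7 CPM (SD, n = 3), 9.52% more in SW-138.

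**Figure D3:**
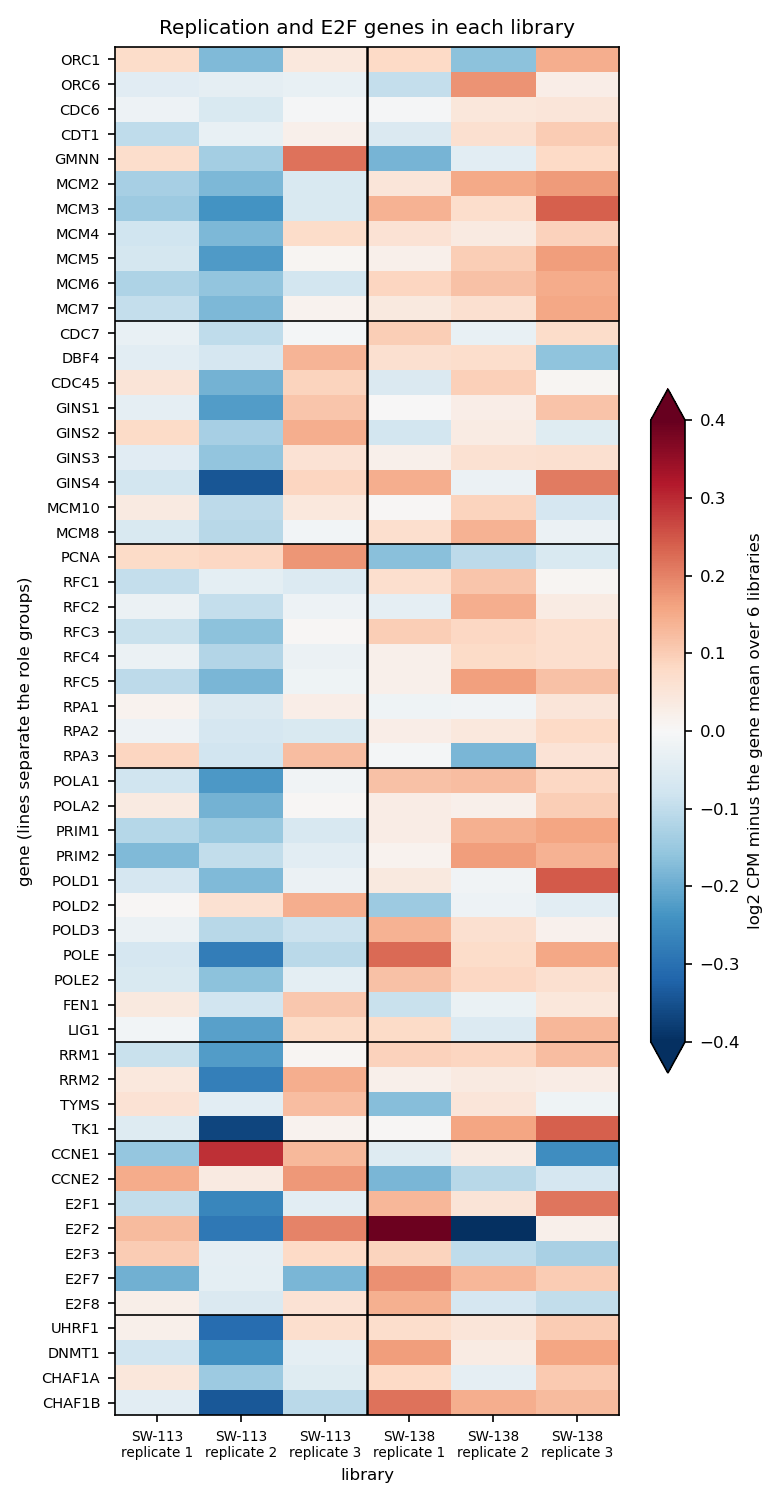
Heat map of log2 CPM minus the gene's mean over the 6 libraries, genes in rows by role and libraries in columns, with colours cut at 0.4 either way. The column of SW-113 replicate 2 is blue in most rows, PCNA runs opposite to its neighbours, and E2F2 varies most within SW-138.

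Calls of single genes changed with the libraries. Leaving out 1 of the 6 left 0 to 9 members called, and the lowest number came without SW-113 replicate 3, when 1.74% of all tested genes were called. Without SW-113 replicate 1 the call that remained was POLE, among 3.07% of all tested genes. Without SW-138 replicate 1 those of MCM2 and MCM6 remained (2.93% of all tested genes), and without SW-138 replicate 3 that of E2F7 (3.49%). All 7 kept their call without SW-138 replicate 2, which added DNMT1 and E2F1, when 9.39% of all tested genes were called. In these 7 genes the libraries of the compounds did not overlap, so leaving out 1 library could hardly reverse a sign. With each library left out in turn, the log2 fold changes ran from 0.22 to 0.29 in MCM2 and 0.25 to 0.34 in MCM3. They ran from 0.21 to 0.26 in MCM6, 0.24 to 0.34 in POLE and 0.25 to 0.33 in E2F7. The ranges were 0.24 to 0.38 in CHAF1B and -0.24 to -0.19 in PCNA.

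**Figure D4:**
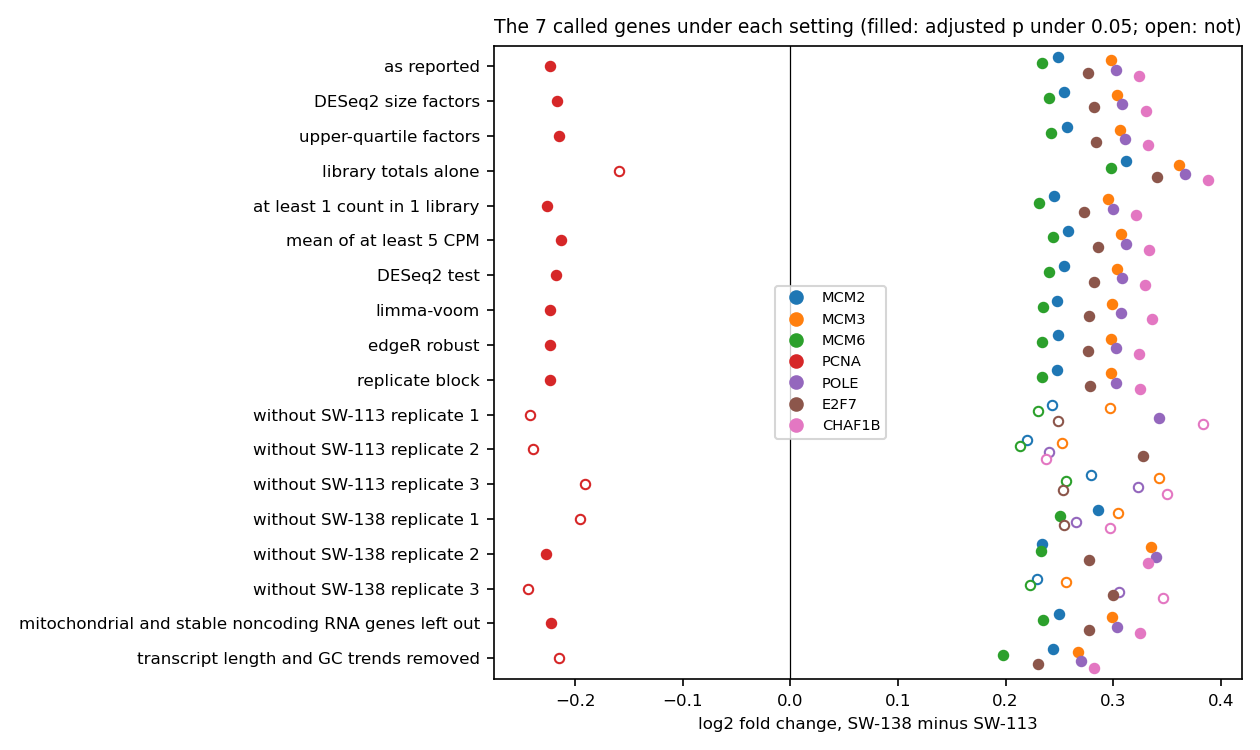
Log2 fold change (horizontal axis) of the 7 called genes under each setting (rows), filled where the adjusted p was under 0.05 and open where not. PCNA stays left of 0 and the others right of it in every row, and most points are open in the rows that leave out a library other than SW-138 replicate 2.

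Scaling and transcript length changed which genes passed. Scaled by library totals alone, 16 members were higher and 0 were lower, and 71% of all calls were higher, against 40.4% with TMM factors. PCNA then stood at -0.16 and did not pass. Across the 55 members the log2 fold change and the length of the longest transcript had a Spearman rho of 0.27, and across 16784 tested genes with a length 0.16, where genes share libraries and are not independent replicates. Of the 20 members with transcripts under 3000 bases 12 were above 0 (median 0.09), and of the 35 longer ones 31 (median 0.12). Over all tested genes the medians were -0.04 and 0.03. PCNA, at 1359 bases, was among the shortest members and POLE, at 8011 bases, was the longest. With trends in length and GC content removed, 9 members were higher and 0 lower, where 6.94% of all tested genes were called. Of the 7 calls 6 were kept, PCNA stood at -0.22 without passing, and the median was 0.08.

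**Figure D5:**
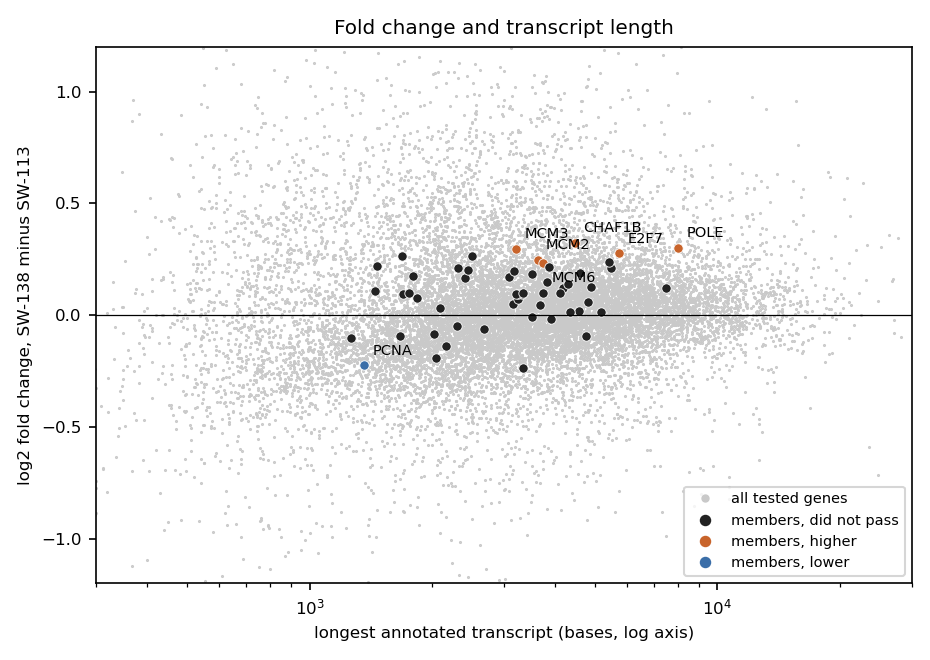
Log2 fold change (vertical axis) against the longest annotated transcript (bases, log axis) for tested genes in grey and the 55 members as larger points, the 7 called ones named. PCNA lies at the short end and POLE at the long end of the members, and 150 tested genes fall outside the drawn range.

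Counting limits some values. An annotated gene lay on the opposite strand over part of 25 members, and in 11 of these such genes held over 10% of the member's CPM, among them MCM2, RFC4, RFC5, FEN1, TYMS and CCNE2. Reads of both strands may not be separated there, since the strand setting is not given in the sources used here. TPRA1, which overlaps MCM2, stood at 44.8 and 44.7 CPM with the respective compounds. MORC3, which the annotation places over CHAF1B on the same strand, was at 50.7 and 51.9 CPM. NACA, annotated over PRIM1 on the same strand and far more abundant, stood at 509 and 429 CPM, lower in SW-138 where PRIM1 lay above 0. WSB2, opposite RFC5, was at 62.8 and 55.5 CPM. The part of overlapping reads in the members' values was not tested.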

How the data were processed

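The authors deposited 1 table of expected counts, estimates per gene and library that need not be whole (10.6% to 11.6% of values were not). Tools listed in the submitters' processing notes, with no role or order, were RSEM 1.3.3, Bowtie2 2.5.4, Trimmomatic 0.39 and DESeq2 1.42.0, on GRCh38, and the annotation version is not given in the sources used here. Expected counts can divide reads among near-identical gene copies, which makes genes with such copies uncertain. Each of the columns carried the title of 1 sample, and columns of other samples numbered 0.

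Counts were rounded, filtered with edgeR's filterByExpr, scaled with TMM and tested by compound with edgeR 4.0.16 (quasi-likelihood, Benjamini-Hochberg, threshold 0.05). Standard errors and 95% intervals used limma-voom (limma 3.58.1), centred on edgeR's fold changes. R was 4.3.3. Coordinates and lengths came from GENCODE release 29 and promoters from RefSeq. Alternatives were other scalings, filters, tests, a replicate block, each library left out, noncoding genes left out and length and GC trends removed. Fits were tested on simulated data. Members, lists and the rule for named genes (every called member, the extremes and the most abundant of each role, fixed regulators and up to 4 called genes a list) were chosen with earlier results of these data known. Libraries within a compound differed by more than counting noise in every pair. The protein comparison that had been planned was not run. One gene that the rule names is not reported here.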

Additional observations from a re-analysis of the deposited data

How the results depend on the processing

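The 7 calls among the members kept their direction under every alternative run, which genes without overlap between the compounds could hardly fail to do. All 7 were kept with DESeq2 size factors, upper-quartile factors, both other filters, DESeq2, limma-voom, robust estimation, noncoding genes left out and an adjusted p of 0.1. Counts of called members moved from 7 (6.82% of all tested genes called) to 16 with library totals alone (7.69%), 15 with at least 1 count in 1 library (6.54%), 12 with a mean of at least 5 CPM (50 members tested, 11.5%), 12 with DESeq2 (10.5%) and 13 at an adjusted p of 0.1 (11.9%). All called genes moved from 1153 to 2060 with the 1-count filter and to 2012 at 0.1. With library totals alone the members' median was 0.16 (all tested genes 0.07) and the log2 ratio of their summed CPM 0.19 where it had been 0.13, and DBF4, GINS2, FEN1 and E2F8 changed sign to 0.050, 0.0023, 0.016 and 0.056. The replicate block gave 2363 called genes (14%) and 17 members, 16 higher and 1 lower, with E2F2 at -0.017. Same-numbered libraries had correlations of deviations of 0.05, 0.21 and 0.05, and not every library correlated best with its own number. SW-113 replicate 2 and SW-138 replicate 2 did, with their other pairs at -0.14, -0.10, -0.08 and -0.12. Whether a shared number marks a batch was not tested. Removing length and GC trends put MCM10, RPA1 and E2F2 at -0.023, -0.030 and -0.0067. Leaving out 1 library gave 303 to 1616 called genes, 0 to 9 called members, and ranges that crossed 0 for ORC1 (-0.029 to 0.13), DBF4 (-0.055 to 0.061), CDC45 (-0.056 to 0.083), MCM10 (-0.030 to 0.060), RPA1 (-0.015 to 0.029), RRM2 (-0.068 to 0.14), E2F2 (-0.22 to 0.20) and E2F8 (-0.089 to 0.042), none of which was called. The cause of these changes was not tested. With 5 members under 5 CPM, depth limits E2F2 and E2F8 most, whose intervals are the widest.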
